A study of Mus musculus with 2 samples.

Results

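Capicua and its ataxin-1 partners were followed across tumors and cell classes of a CIC::DUX4 sarcoma mouse model. The members were the 3 genes Cic, Atxn1 and Atxn1l, chosen by gene name. The count matrices listed 19059 genes, among them Cic and Atxn1, so 2 of the 3 members have values. Atxn1l was not analysed here. Capicua is an HMG-box repressor that binds short octamer sites near genes of the receptor tyrosine kinase response, among them the PEA3 factors Etv1, Etv4 and Etv5, the Sprouty and Spred proteins and the Dusp phosphatases. Ataxin-1 and ataxin-1-like bind capicua, stabilize it and take part in its repression, and ERK signaling relieves that repression by phosphorylating capicua. In CIC::DUX4 sarcoma the capicua DNA-binding part is joined to the DUX4 activation domain, so that genes which capicua normally holds down are turned on.

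Single-nucleus RNA-Seq was performed by the study on nuclei of dFLEx CDS tumors. In this mouse the fusion lies inverted in a Rosa26 allele behind a CAG promoter, and Cre plus FLPE plasmids electroporated into the hind limb muscle of mice aged 6 to 12 weeks switch it on. The untreated group held 4 tumors of genotype dFLEx CDS +/-, and the other group held 4 tumors from dFLEx CDS mice given Minnelide, a triptolide prodrug that acts on RNA polymerase II transcription, at 0.42 mg/kg for 21 days. The study picked the sequenced Minnelide tumors to cover good and poor responses, which the labels do not give, so this group is mixed in a way that enters its spread. Each matrix was taken as 1 tumor, and nothing in the labels tells whether the tumors differed in sequencing run. The paper raises tumors from different cells of origin as a possibility, and the cell class in which the fusion arose is not known here. The endogenous Cic alleles are present in all tumors of both groups, and the fusion carries a large part of the CIC sequence. The study describes a reference with the fusion sequence added for its bulk RNA-Seq, and for the nuclei it names mm39 without mention of that addition. Whether transcripts of the fusion were counted as Cic is not stated, so each Cic value may include or miss them.

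After filtering, 59907 nuclei remained, with 15997957 to 62498892 unique molecular identifiers (UMIs) per tumor. The median per nucleus lay between 2430 and 4056 UMIs in 7 tumors and at 880 UMIs in untreated tumor 4. Clusters were named from marker genes, and the members took no part in the clustering. The class called tumor-like, from 8 known targets of the fusion, held 36210 nuclei, the fibroblast-like class 6954, the myocyte-like class 6556, the endothelial-like class 3199, the macrophage-like class 1726 and the pericyte-like class 942. For 7 of the 8 tumor markers the tumor-like class had the highest level of all classes. The same genes named the class, so this is no separate check of its identity. The main tumor-like cluster of untreated tumor 1 (3264 nuclei) also raised 9 of 10 endothelial and 7 macrophage markers. That of untreated tumor 4 (7629 nuclei) raised 8 myocyte and 6 fibroblast markers. The cluster led by Minnelide tumor 2 (1559 nuclei) raised 6 myocyte markers, and that led by Minnelide tumor 4 (3625 nuclei) raised 5 endothelial markers. The tumor-like clusters of 5940 and 931 nuclei, drawn mainly from Minnelide tumor 1, reached 3 raised markers of no other class. By these markers the tumor-like class is therefore not cleanly separated from the other classes. The paper describes tumor cells with endothelial features in 1 of 4 tumors. Whether the cluster of untreated tumor 1 is that population was not tested. Of the 12 tumor-like clusters 10 drew over 90% of their nuclei from a single tumor. Transcripts of tumor markers were found in every class. Etv4, a fusion target, reached 36.2% of its tumor-like level in fibroblast-like and myocyte-like nuclei and 50.1% in macrophage-like nuclei (means over 8 tumors), and Vgf, another target, reached 69.3% in myocyte-like and 102% in macrophage-like nuclei. The classes may therefore hold tumor RNA. Whether these transcripts came from tumor RNA or from the cells of each class was not tested, nor was its part in the class values that follow.

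In the mm39 genome (GRCm39, GENCODE M39) Cic is a protein-coding gene on the plus strand at chr7:24967095-24993584, a span of 26.5 kb with 10.3 kb of exon sequence. Atxn1 lies on the minus strand at chr13:45703231-46118484, a span of 415.3 kb with 14.5 kb of exon sequence. Atxn1l lies on the minus strand at chr8:110435993-110464442. The protein-coding gene Pafah1b3 overlaps Cic on the opposite strand and Gmpr overlaps Atxn1 on the opposite strand. On the strand of Atxn1 itself the annotation also places a protein-coding gene with no symbol and the noncoding genes Gm61646 and Gm60770, and reads from them cannot be told apart from those of Atxn1 here. The level of Atxn1 is therefore carried by a gene whose body is mostly intron, and the methods of the study state that intronic reads were counted.

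Capicua recognizes the octamers TGAATGAA and TCAATGAA. The promoter windows of RefSeq (GRCm38.p6, 250 bases before to 50 after each start) were searched for both octamers on both strands to show the site that this repressor reads. For 9 of the 20 target genes listed for this report the table held 11 windows, and 3 of the 11 held an octamer, against 2.03% of all 32851 windows. The 3 matches are shown on the strand of the gene with the octamer, or its reverse complement, in capitals.
Shc4: attcggcaaagTTCATTCAtaaaaatttca
Spred3: cttgatttttgTGAATGAAatgctccttgt
Spry2: tcggcctcttgTTCATTGAgaaaaaaaaaa
The Shc4 stretch (chr2:125724101-125724130, minus strand) begins its octamer at base 30 of the transcribed part. The Spred3 match (chr7:29168639-29168668, minus strand) begins 10 bases before the start, and the Spry2 match (chr14:105896855-105896884, minus strand) begins 54 bases before it. The table held 2 windows of Cic and 1 of Atxn1l, and these letters were not in the 3 windows. Shc4 encodes a Shc adaptor, Spred3 an inhibitor of Ras signaling and Spry2 an inhibitor of receptor tyrosine kinase signaling. All 3 genes were measured, and their levels are given with the target lists.

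Cic was detected in the tumor-like nuclei of all 8 tumors, and its level did not differ between the groups beyond the spread. The level is given in CPM, the counts of the gene scaled to a common total of 1e+06 UMIs of the class. Cic measured 39.6, 50.7, 48.5 and 59.2 in untreated tumors 1 to 4. In Minnelide tumors 1 to 4 it measured 42.3, 39.8, 48.3 and 43.2 CPM. The groups overlapped, and the highest value belonged to untreated tumor 4, the shallowest library. The means were 49.5 ± 8.08 CPM (SD, n = 4) untreated and 43.4 ± 3.58 CPM (SD, n = 4) with Minnelide. The fold change did not differ from 0 beyond the spread between tumors (log2 fold change -0.06 ± 0.18 SE, 95% interval -0.47 to 0.35, edgeR adjusted p = 0.913).

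Atxn1 varied from tumor to tumor more than it differed between the groups. It measured 891, 1809, 1250 and 1094 CPM in untreated tumors 1 to 4 (tumor-like nuclei), and 1061, 1147, 1635 and 2388 CPM in Minnelide tumors 1 to 4. The lowest and the highest tumor differed in group, but the other 6 tumors interleaved. The means were 1261 ± 394 CPM (SD, n = 4) and 1558 ± 608 CPM (SD, n = 4). The log2 fold change was 0.43 ± 0.36 (SE), with a 95% interval of -0.39 to 1.24 and an edgeR adjusted p of 0.677. Without untreated tumor 1 the estimates were -0.19 for Cic and 0.26 for Atxn1, and without untreated tumor 4 they were 0.042 and 0.37. At least 5388 Atxn1 UMIs lay behind each tumor-like value, so counting error was small beside this spread. For Cic the counts were lower, at 187 to 2133 UMIs per tumor. Minnelide tumor 2 rested on 187 UMIs, with a 95% exact interval of 34.3 to 46.0 CPM for counting error alone. The interval was 37.5 to 41.7 CPM in untreated tumor 1 and 54.7 to 64.0 CPM in untreated tumor 4.

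**Figure D1:**
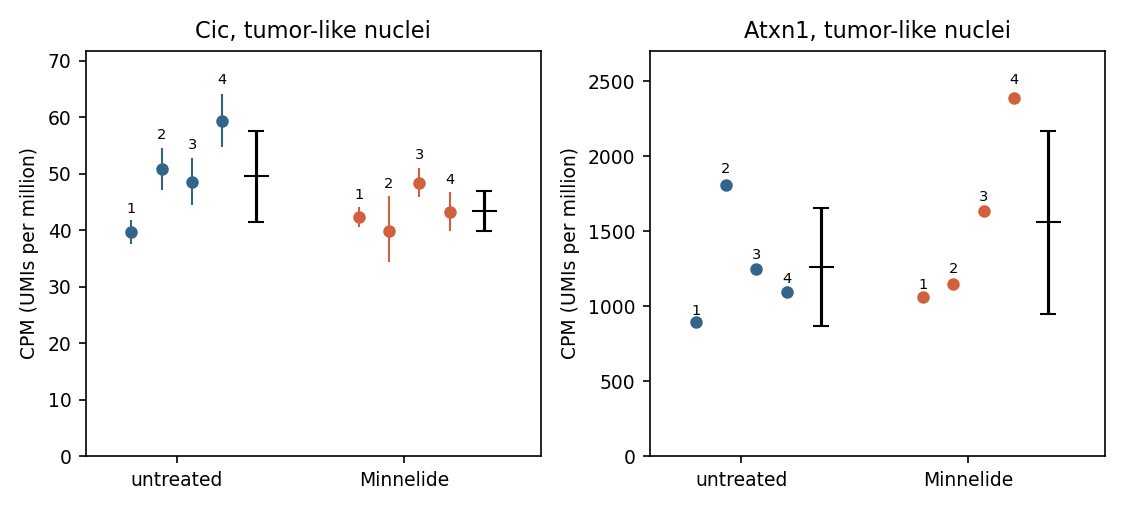
Level of Cic and Atxn1 in tumor-like nuclei, in CPM on the vertical axis, for each of the 4 untreated and 4 Minnelide tumors (points, numbered, with 95% exact binomial intervals that cover counting error only). The black bars give the group mean and SD. Cic lay between 39.6 and 59.2 CPM and Atxn1 between 891 and 2388 CPM, with overlapping groups for each gene.

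Over all 8 tumors Cic averaged 46.5 ± 6.63 CPM (SD, n = 8) and Atxn1 1410 ± 500.1 CPM (SD, n = 8) in tumor-like nuclei. Per kilobase of gene span these levels were 1.75 CPM for Cic and 3.39 CPM for Atxn1. Per kilobase of exon sequence they were 4.50 and 97.2 CPM. The difference in level between the members thus depends on the length that it is set against, and the share of intronic reads in each gene is not known from the counts.

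Atxn1 also differed between the clusters of some tumors. In untreated tumor 4, a tumor-like cluster of 982 nuclei with a median of 2878 UMIs held 1450 CPM of Atxn1, while a cluster of 7307 nuclei with a median of 779 UMIs held 890 CPM. Cic measured 57.7 and 60.7 CPM in these clusters. In Minnelide tumor 3 the tumor-like clusters of 5410 and 361 nuclei held 1617 and 1726 CPM of Atxn1. In Minnelide tumor 1 a cluster of 923 nuclei, at a median of 16136 UMIs, held 1122 CPM, against 996 CPM in the cluster of 5804 nuclei. In untreated tumor 1 the cluster of 3260 nuclei, at a median of 5099 UMIs, held 883 CPM, and 97 nuclei of another cluster, at a median of 4676 UMIs, held 1418 CPM. The clusters of untreated tumor 4 thus differed in depth, and those of untreated tumor 1 hardly did. These are descriptions of clusters and have no test.

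Atxn1 is long, and long genes take a share of the UMIs that differed between tumors. Genes spanning at least 100 kb took 41.9% of the tumor-like UMIs in untreated tumor 1, the tumor with the least Atxn1 and Cic, and 45.9% to 50.4% in the other untreated tumors. In Minnelide tumors they took 48.1% to 53.6%. The tumor with the most Atxn1, Minnelide tumor 4, stood at 50.7%, so the order of the 2 measures was not the same. The part of long genes in the Atxn1 values was not tested.

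No gene was called between the groups in any class by edgeR at an adjusted p under 0.05, so neither member was. In tumor-like nuclei 0 of 13039 genes (0%) were called, against 1286 at an unadjusted p under 0.05 and 113 by DESeq2. In all retained nuclei 0 of 13811 genes (0%) were called, with 1376 at an unadjusted p under 0.05 and 197 by DESeq2. In the other classes edgeR called 0 of 11477 genes (0%) in fibroblast-like, 0 of 8320 (0%) in macrophage-like, 0 of 9651 (0%) in endothelial-like, 0 of 10315 (0%) in myocyte-like and 0 of 7436 (0%) in pericyte-like nuclei. At an unadjusted p under 0.05 the counts in these classes were 602, 533, 1133, 1240 and 368, and DESeq2 called 16, 1, 42, 68 and 0. DESeq2 called neither member in any class, with an adjusted p of NA for Cic in myocyte-like nuclei.

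Outside the tumor-like class neither member passed the test in any class. In fibroblast-like nuclei Cic measured 38.2 ± 7.53 CPM (SD, n = 4) untreated and 37.4 ± 3.27 CPM (SD, n = 4) with Minnelide, and Atxn1 measured 1230 ± 197 and 1340 ± 247 CPM. The largest estimate for Cic was in myocyte-like nuclei, 24.97 ± 7.07 untreated against 30.7 ± 4.28 CPM (log2 fold change 0.21 ± 0.28 SE, edgeR adjusted p = 0.827). For Atxn1 it was in endothelial-like nuclei, at 1012 ± 283 against 1258 ± 196 CPM (log2 fold change 0.34 ± 0.25 SE, edgeR adjusted p = 0.598). The intervals of the class fits were wide, reaching from -0.59 to 0.98 for Cic in pericyte-like nuclei, where Minnelide tumor 4 had 14 nuclei and was left out. Over all retained nuclei the log2 fold changes were 0.02 for Cic, with means of 44.2 ± 5.72 and 40.6 ± 5.70 CPM (SD, n = 4 each), and 0.45 for Atxn1, with means of 1232 ± 337 and 1533 ± 506 CPM. The estimate for Cic turns to -0.12 when libraries are scaled by their totals alone, a scaling that puts the median of all genes at -0.15 in place of 0.01.

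**Figure D2:**
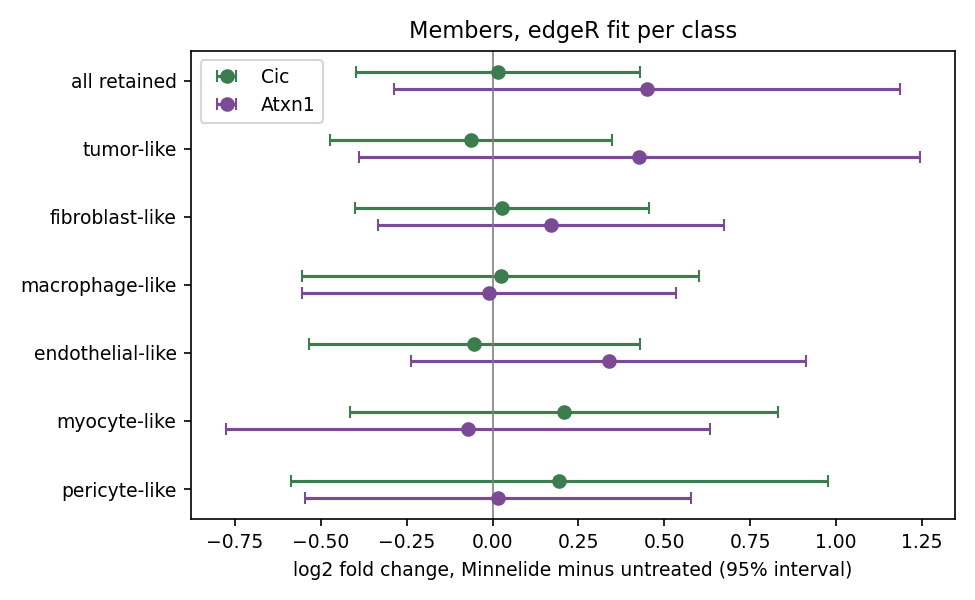
Log2 fold change, Minnelide minus untreated, of Cic and Atxn1 in all retained nuclei and in each class (points, edgeR) with 95% intervals (bars). Every interval includes 0, and the tumor-like estimates are -0.06 for Cic and 0.43 for Atxn1.

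Between classes of the same tumor, Cic was higher in tumor-like nuclei than in fibroblast-, endothelial-, pericyte- and myocyte-like nuclei. The order of the means over tumors was tumor-like at 46.5 ± 6.63 CPM, macrophage-like at 43.7 ± 8.49, fibroblast-like at 37.8 ± 5.39, endothelial-like at 36.0 ± 5.62, pericyte-like at 33.4 ± 9.06 (SD, n = 7) and myocyte-like at 27.9 ± 6.23 CPM (SD, n = 8 for the others). No neighbors in this order passed the exact sign-flip test. Further apart, 7 of 15 pairs of classes passed it after adjustment over the 30 tests of both genes. At the coarser clustering resolution of 0.5 none passed. The exact adjusted p was 0.067 for tumor-like over fibroblast-, endothelial-, myocyte- and pericyte-like nuclei, with the same signs. That setting changes the classes of untreated tumor 1, where the tumor-like class held 6480 nuclei in place of 3360. Its macrophage-like and endothelial-like classes fell to 7 nuclei each, under the 20 needed to enter, so pairs with these classes lost this tumor.

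Tumor-like nuclei held more Cic than fibroblast-like nuclei in 8 of 8 tumors, by 1.23-fold (geometric mean; log2 ratio 0.30 ± 0.20 SD, n = 8, exact sign-flip p = 0.00781, adjusted p = 0.0426). They held more than endothelial-like nuclei in 8 of 8 tumors, by 1.29-fold (log2 ratio 0.37 ± 0.14 SD, exact adjusted p = 0.0426). The largest difference was over myocyte-like nuclei, at 1.69-fold and in 8 of 8 tumors (log2 ratio 0.76 ± 0.50 SD, exact adjusted p = 0.0426). Over pericyte-like nuclei it was 1.43-fold, in 7 of 7 tumors, with the same adjusted exact p. Macrophage-like nuclei exceeded myocyte-like nuclei 1.58-fold in 8 of 8 tumors and pericyte-like nuclei 1.35-fold in 7 of 7 tumors, and fibroblast-like nuclei exceeded myocyte-like nuclei 1.38-fold in 7 of 8 tumors. Tumor-like and macrophage-like nuclei were not told apart (1.07-fold, higher in 3 of 8 tumors, exact adjusted p = 0.469). Transcripts of the fusion, where counted as Cic, would enter the tumor-like class, and their part was not tested.

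The counts behind the smaller classes were low. A macrophage-like value rested on 6 to 56 Cic UMIs, a pericyte-like value on 8 to 27 and a myocyte-like value on 7 to 558. With 8 tumors the smallest p the test can give is 0.00781. Without 1 tumor the smallest is 0.0156, and the count of Cic pairs that passed was then 0 for 7 of the tumors left out (7 without Minnelide tumor 4). The sign of the 7 differences was kept in all 10 alternatives run for each pair.

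Atxn1 was lower in macrophage-like nuclei than in tumor-, fibroblast- and pericyte-like nuclei, and lower in pericyte-like than in tumor-like nuclei. The order of the means was tumor-like at 1410 CPM, fibroblast-like at 1285 ± 215, myocyte-like at 1199 ± 266, pericyte-like at 1148 ± 178 (SD, n = 7), endothelial-like at 1135 ± 261 and macrophage-like at 1035 ± 182 CPM (SD, n = 8). No neighbors in this order passed the exact sign-flip test, and 4 of 15 pairs did. Tumor-like nuclei exceeded macrophage-like nuclei 1.31-fold in 8 of 8 tumors and pericyte-like nuclei 1.09-fold in 7 of 7, and fibroblast-like nuclei exceeded macrophage-like nuclei 1.24-fold in 7 of 8 (each exact adjusted p = 0.0426). Macrophage-like nuclei were also below pericyte-like nuclei, at 0.924 of their level and in 7 of 7 tumors. Genes of at least 100 kb took 44.1% of the UMIs in macrophage-like nuclei and 47.3% to 48.5% in the other classes, so Atxn1 was also set against the UMIs of these genes alone. On that scale tumor-like nuclei were above macrophage-like nuclei in 6 of 8 tumors and above pericyte-like nuclei in 6 of 7, and fibroblast-like nuclei were above macrophage-like nuclei in 6 of 8. Macrophage-like nuclei were above pericyte-like nuclei in 4 of 7 tumors, so the direction of that pair depends on the scale. At resolution 0.5 no Atxn1 pair passed (tumor-like over macrophage-like, n = 7 without untreated tumor 1, exact adjusted p = 0.067). The count of passing Atxn1 pairs was 0 without any of 7 tumors and 3 without Minnelide tumor 4.

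**Figure D3:**
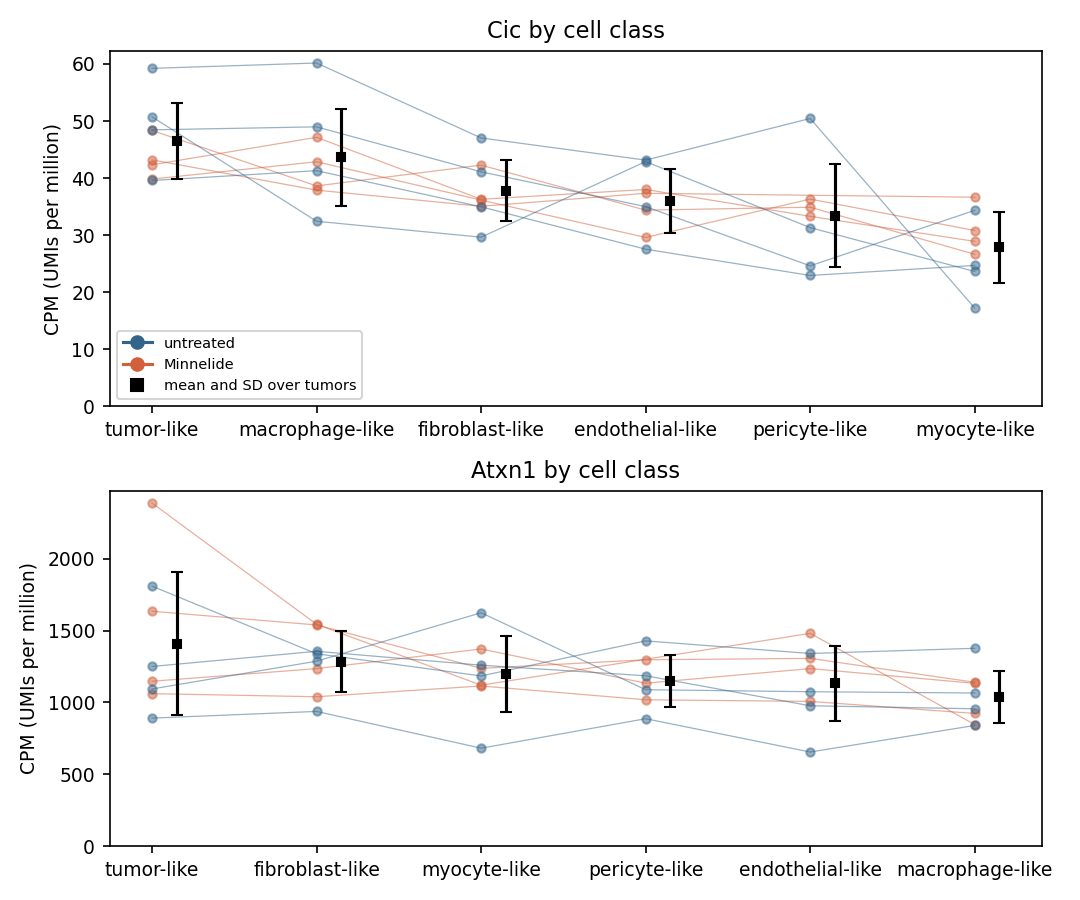
Level of Cic (top) and Atxn1 (bottom) in the 6 named classes, in CPM, with classes ordered by their mean. Lines join the classes of 1 tumor, colored by group, and black squares with bars give the mean and SD over tumors. Mean Cic was 46.5 CPM in tumor-like and 27.9 CPM in myocyte-like nuclei, and Atxn1 spanned 1035 to 1410 CPM.

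The balance of the members was measured in tumor-like nuclei without any library scaling. Untreated tumors 1 to 4 held 22.5, 35.7, 25.8 and 18.5 Atxn1 UMIs per Cic UMI, and Minnelide tumors 1 to 4 held 25.1, 28.8, 33.8 and 55.3. Untreated tumor 2 lay above 3 of the Minnelide tumors, so the groups overlapped. The log2 ratio of Cic to Atxn1 averaged -4.64 ± 0.40 (SD, n = 4) and -5.09 ± 0.50 (SD, n = 4), a difference of -0.45 (exact permutation p = 0.229, two-sided). The smallest p that 4 tumors against 4 can give is 0.0286.

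Because depth differed between tumors, the share of tumor-like nuclei with a UMI was also taken after every nucleus was thinned to 1000 UMIs. A Cic UMI was then found in 4.05%, 5.39%, 4.67% and 5.55% of nuclei of untreated tumors 1 to 4 and in 4.56%, 3.97%, 4.37% and 4.28% of those of Minnelide tumors 1 to 4. The group means were 4.91% ± 0.690 and 4.30% ± 0.246 (SD, n = 4 each), a difference of -0.62 percentage points (exact permutation p = 0.171, adjusted p = 0.343). Before thinning the share ran from 6.94% in untreated tumor 4 to 26.9% in untreated tumor 1.

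An Atxn1 UMI was found at this depth in 53.3%, 73.2%, 63.4% and 64.6% of nuclei of the untreated tumors and in 55.6%, 58.0%, 73.2% and 83.4% of those of the Minnelide tumors. The means were 63.6% ± 8.15 and 67.5% ± 13.1 (SD, n = 4 each), and the difference of 3.96 percentage points was within the spread between tumors (exact permutation p = 0.600, adjusted p = 0.600). It was -1.31 points without Minnelide tumor 4. Thinning left out 5745 of 8360 nuclei of untreated tumor 4 and 0 to 444 in each of the other tumors. At 500 UMIs, which left out 2 nuclei in all, the Atxn1 shares averaged 39.3% ± 7.18 and 46.3% ± 12.03 (SD, n = 4 each), a difference of 7.05 points (exact permutation p = 0.343), and untreated tumor 4 stood at 34.1%. Both genes are expected in every cell type, so no class served as a background without them.

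**Figure D4:**
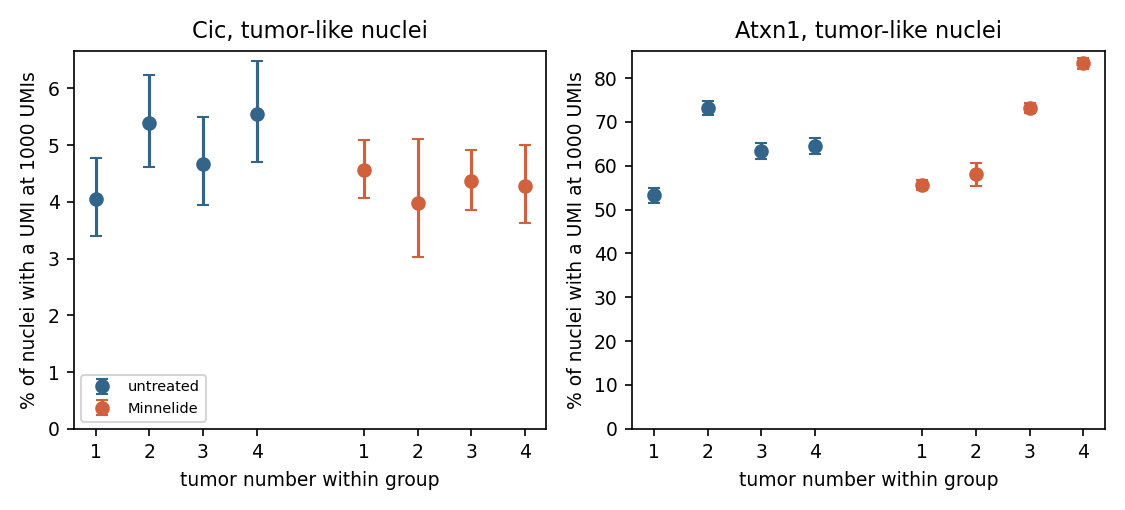
Percent of tumor-like nuclei with at least 1 UMI of Cic (left) or Atxn1 (right) after thinning each nucleus to 1000 UMIs, for each tumor, with 95% exact binomial intervals. Cic lay between 3.97% and 5.55% and Atxn1 between 53.3% and 83.4%.

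Targets of capicua or of the fusion were examined as 2 lists, the 8 that also named the tumor-like class and 12 others. None was called in tumor-like nuclei. The paper scores fusion activity from many of these genes and describes its score as fusion targets together with genes high in such tumors. Of the 8 marker targets 6 had a positive and 2 a negative log2 fold change, with a median of 0.24 against -0.0074 for all genes. Vgf, a secreted neuropeptide precursor, measured 1242 ± 226 and 2178 ± 967 CPM (log2 fold change 0.94 ± 0.35 SE, edgeR adjusted p = 0.5). Etv1, a PEA3 transcription factor, measured 4716 ± 390 and 5445 ± 1162 CPM and Etv4, another, measured 3244 ± 585 and 2438 ± 547 CPM. Dusp4, a MAP kinase phosphatase, measured 225 ± 105 and 194 ± 82.1 CPM. The octamer gene Shc4 measured 1653 ± 558 and 1887 ± 160 CPM. All pairs give the untreated mean first, with SD and n = 4.

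Of the 12 other targets 10 had a positive and 2 a negative estimate, with a median of 0.23. The lowest unadjusted p values in this list belonged to the negative estimates. Low values leaned the same way over all genes: of 1286 at an unadjusted edgeR p under 0.05, 314 were higher with Minnelide. Spry2 measured 74.3 ± 17.0 and 46.9 ± 5.27 CPM (log2 fold change -0.52 ± 0.16 SE, edgeR adjusted p = 0.5), and Myc, a growth regulator, measured 19.6 ± 6.04 and 10.6 ± 2.25 CPM (log2 fold change -0.72 ± 0.24 SE, edgeR adjusted p = 0.5). Spred1, an inhibitor of Ras signaling, measured 980 ± 35.7 and 1047 ± 125 CPM, and Ccnd2, a D-type cyclin, measured 1671 ± 532 and 2040 ± 86.1 CPM. The octamer gene Spred3 measured 274 ± 45.5 and 281 ± 18.3 CPM. Outside the tumor-like class all 8 marker targets had positive estimates in each of the fibroblast-, macrophage-, endothelial-, myocyte- and pericyte-like classes, and 0 were called in any. Their median log2 fold change reached 1.22 in myocyte-like nuclei. The tumor-like share of nuclei was 37.4% to 80.6% in untreated and 23.0% to 80.6% in Minnelide tumors, and the part of tumor RNA in these classes was not tested.

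None of the tested genes that act on capicua or ataxin-1 was called. Of 10 kinases and cofactors between ERK and capicua, 7 were tested and 0 called, with 6 positive and 1 negative estimate and a median log2 fold change of 0.11. Mapk3, which encodes ERK1, measured 24.998 ± 10.7 and 20.6 ± 3.12 CPM. Dcaf7, a scaffold of DYRK kinases, measured 48.2 ± 6.78 and 47.2 ± 5.88 CPM, with a positive estimate (log2 fold change 0.11 ± 0.13 SE). CPM are scaled by library totals alone and the estimates by the factors of the edgeR fit, so their directions can differ. All 7 genes of the 14-3-3 family, whose proteins bind phosphorylated capicua and ataxin-1, were tested, 0 were called, and 7 of 7 estimates were negative with a median of -0.11. Ywhah measured 33.6 ± 15.7 and 21.0 ± 3.62 CPM (edgeR adjusted p = 0.524), and Ywhaz measured 151 ± 31.6 and 122 ± 7.63 CPM. With library totals as the only scaling the median of all genes in tumor-like nuclei moves to -0.15, which is larger than most of the positive kinase estimates and would leave the 14-3-3 estimates negative.

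Among 10 corepressor and chromatin genes 0 were called, with 8 positive and 2 negative estimates and a median of 0.14. Hdac3, a histone deacetylase, measured 48.7 ± 17.0 and 34.7 ± 2.17 CPM. Arid2, a chromatin remodeling subunit, measured 298 ± 32.5 and 326 ± 17.6 CPM, and the deacetylase Hdac2 measured 77.0 ± 3.76 and 80.4 ± 9.65 CPM. Of 11 partners and regulators of ataxin-1, 9 were tested and 0 called, with a median of 0.05. Rbm17, a splicing factor bound by ataxin-1, measured 40.7 ± 4.40 and 39.7 ± 1.76 CPM, again with a positive estimate (log2 fold change 0.10 ± 0.12 SE). Kat5, an acetyltransferase, measured 13.9 ± 1.27 and 12.1 ± 2.85 CPM, and Pja1, a ubiquitin ligase, measured 11.4 ± 0.629 and 10.3 ± 1.501 CPM.

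**Figure D5:**
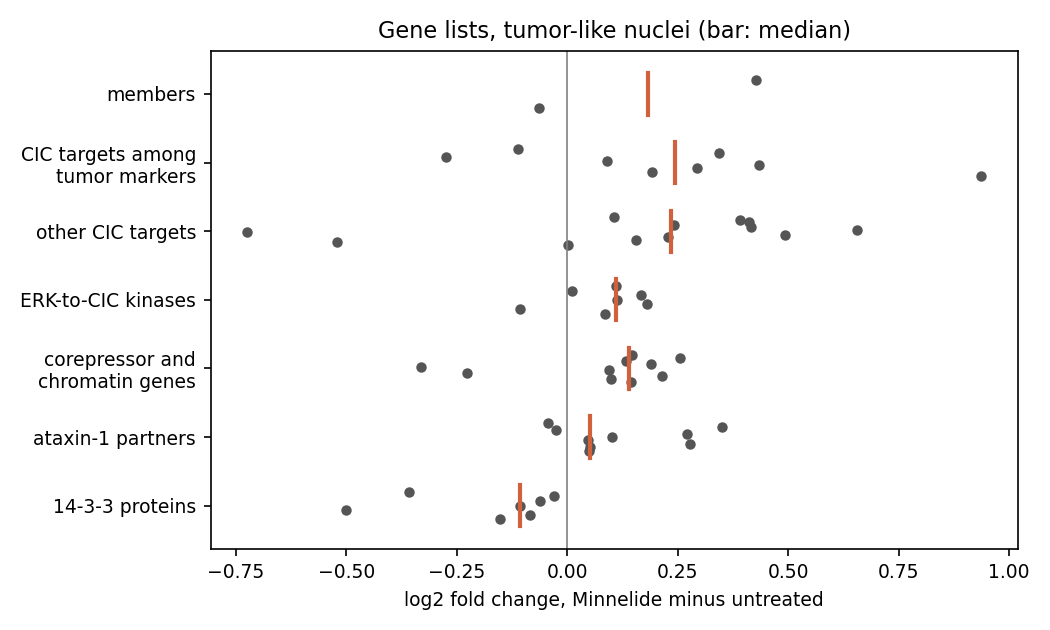
Log2 fold change, Minnelide minus untreated, in tumor-like nuclei for each tested gene of the members and the 6 gene lists (points), with the median of each list (bar). The 14-3-3 genes lie below 0, with a median of -0.11, and the 2 target lists have medians of 0.24 and 0.23.

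The pattern of each member over the class and tumor sums was set beside that of 7570 other genes with a mean of at least 20 CPM. For Cic the closest were Wdyhv1, Zfp217, Arpc1a, Fbh1 and Pold3, with Pearson r of 0.763, 0.751, 0.734, 0.719 and 0.708 over 47 sums. For Atxn1 they were Plekha6, Hs3st3a1, Cdh23, Mdga1 and Ptpru, with r of 0.727, 0.710, 0.709, 0.709 and 0.707. Cic and Atxn1 had an r of 0.0986 with each other over the same sums. The sums share tumors, libraries and depth, so these values describe likeness and carry no test.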

How the data were processed

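The authors deposited raw UMI counts per gene and nucleus, 1 matrix per tumor, made with Cell Ranger (9.0.1 per the file headers, 7.0.1 in the submitters' processing notes, with bcl2fastq 2.20) on mm39 with intronic reads included. Nuclei were filtered on mitochondrial percent against detected genes and on at least 200 genes, and the highest Scrublet scores were removed (0.8% per 1000 nuclei). Nuclei were clustered with scanpy 1.11.5 (2000 variable genes, 30 components, 40 neighbors, Leiden resolution 1.0 with igraph 0.11.9), leaving 25 clusters. No integration was used. Clusters were named "-like" from marker lists by a rule that was set with the clusters in view, ahead of the group tests, and 3528 nuclei stayed unnamed. UMIs were summed per tumor and class (at least 20 nuclei), and groups were compared with edgeR 4.0.16 (TMM, filterByExpr, quasi-likelihood, Benjamini-Hochberg over all genes tested; DESeq2 1.42.0 as alternative; R 4.3.3) without covariates. Fold changes are Minnelide over untreated. Classes were compared within tumors by an exact two-sided sign-flip test, and ratios and shares between groups by an exact two-sided permutation test (scipy 1.17.1). Tests were tried on simulated data. 3 ratios between members were planned, and only that of Cic to Atxn1 could be computed. Tumor numbers are only names, and p-values measure the spread between tumors. Tumors of different groups shared 49 to 132 barcodes in 4 of 28 pairs, those with the same tumor number, and 0 pairs within a group shared any. The study describes on-chip multiplexing, and the labels give no run. A run or chip that coincides with the group cannot be told apart from treatment here.

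Named genes were the members, the 2 genes per list and direction with the lowest unadjusted p in tumor-like nuclei, and the 5 genes most like each member; Shc4, Spred3 and the genes that overlap the members were named for their sequence. A few genes that this rule names are not reported here. The members, lists and tests were chosen with earlier results of these data known. Which features were counted for the 3′ kit is unsettled: ribosomal protein genes are absent from the list of features used here.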

Additional observations from a re-analysis of the deposited data

Results flagged for a closer look

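Of 32 groups of 4 tumors examined with Dixon's ratio, 2 held a tumor far from the other 3, and chance sets apart about 1 in 20. In fibroblast-like nuclei of the Minnelide group, Cic was highest in tumor 3 at 42.3 CPM, while the other tumors lay between 35.05 and 36.3 CPM. In fibroblast-like nuclei of the untreated group, Atxn1 was lowest in tumor 1 at 938 CPM, while the other tumors lay between 1287 and 1356 CPM. Without untreated tumor 1 the Atxn1 estimate in fibroblast-like nuclei was 0.03 in place of 0.17.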

How the results depend on the processing

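No paired analysis was possible because the labels give no replicate numbers, and the tumor numbers follow file order. Neither member passed an adjusted p of 0.05 in any of 180 alternative fits of the group comparison (smallest adjusted p = 0.457), and 28 of them changed the sign of an estimate that was not called. With library sizes only, an alternative chosen after seeing the data, Cic was -0.12 in all retained, -0.024 in fibroblast-like and -0.045 in macrophage-like nuclei, and Atxn1 was 0.031 in myocyte-like and -0.0012 in pericyte-like nuclei. At resolution 0.5 Cic was -0.11 in macrophage-like and Atxn1 -0.014 in pericyte-like nuclei, and with no filter on low counts Atxn1 was 0.0046 in macrophage-like nuclei.

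Leaving out 1 tumor gave Cic estimates from -0.11 to 0.12 in all retained, -0.19 to 0.042 in tumor-like, -0.088 to 0.15 in fibroblast-like, -0.13 to 0.11 in macrophage-like and -0.20 to 0.043 in endothelial-like nuclei. For Atxn1 the ranges were -0.12 to 0.13 in macrophage-like, -0.29 to 0.18 in myocyte-like, -0.11 to 0.12 in pericyte-like and, with its sign kept, 0.14 to 0.69 in tumor-like nuclei. The difference in the share of nuclei with an Atxn1 UMI ranged from -1.31 to 7.94 percentage points and was negative without Minnelide tumor 4. The class pairs that passed numbered 0 at resolution 0.5 for each gene, 0 to 7 (Cic) and 0 to 3 (Atxn1) without 1 tumor; fewer tumors raise the smallest p the exact test can give. The ratio of the members, from -0.63 to -0.22 without 1 tumor, kept its sign. DESeq2 called no gene of the lists in tumor-like nuclei, the class in which the lists were put to it.

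With a Cic UMI in under 6% of tumor-like nuclei at 1000 UMIs, Cic cannot be compared nucleus by nucleus, and the pericyte-like and macrophage-like values rest on few UMIs.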

Other observations

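Nuclei outside the 6 named classes also held both members. In the 8 tumors the osteoclast-like cluster of 792 nuclei, which was left out of the class comparisons, held 18.0 to 47.0 CPM of Cic and 413 to 1735 CPM of Atxn1, from 3 to 35 Cic UMIs per tumor. An unnamed cluster with 2426 nuclei in untreated tumor 1, at a median of 1011 UMIs, held 40.1 CPM of Cic and 400 CPM of Atxn1, under the tumor-like level of that tumor for Atxn1. Another with 1047 nuclei in Minnelide tumor 3 held 57.0 and 777 CPM. A myocyte-like cluster at a median of 1054 to 1883 UMIs held 413 to 604 CPM of Atxn1 in the 5 tumors with at least 20 of its nuclei.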
